A study of Mus musculus with 502 samples.

Results

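Immune cells sorted from mouse kidneys after 3 days of cold storage were set against immune cells sorted from fresh kidneys in a single library pool. The cells were chosen by their labels alone, as the 82 cells labelled day 3 and the 81 labelled fresh whose titles carry the pool name IM834, out of 502 cells in the series. Both groups came from CD1 wild type mice, an outbred strain, aged about 3 weeks. The fresh group was dissociated right after harvest, from both kidneys of a mouse according to the methods. The day 3 group came from intact kidneys held at 4 °C in HTS-FRS, a preservative developed for organ transplants, and according to the methods only part of the kidney tissue of a mouse was taken for this time point. Kidneys were not perfused, so blood leukocytes may be present. After enzymatic digestion, cells that excluded propidium iodide, a dye that enters dead cells, and that carried Cd45, the surface protein common to leukocytes, were sorted 1 per well, and cDNA was made by Smart-seq2. Only wells with enough cDNA were sequenced. No label ties a cell to an animal, so each group counts as 1 sample. The differences between the groups therefore have no replicate check and no p-value, and storage cannot be told apart from differences between animals, dissections or sorts. Intervals are exact binomial (Clopper-Pearson) 95% intervals that cover counting error only, and the limit beside a count of 0 is 3 counts of the total unless it is called exact.

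Resident macrophages of the kidney take up debris and immune complexes, and they are known for high expression of complement C1q, the scavenging receptors and the chemokine receptor Cx3cr1. T cells are recognised by the Cd3 chains of the T cell receptor complex and B cells by Cd79a and Cd79b, the signalling chains of the B cell receptor. Stress during tissue handling is known to switch on immediate early genes, such as the AP-1 subunits Fos and Jun, and heat shock chaperones, such as the Hsp70 proteins encoded by Hspa1a and Hspa1b.

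Total gene counts per cell ran from 22125 to 905555 (median 548583) in fresh cells and from 3590 to 1196748 (median 520104) in day 3 cells, and 1 cell in each group held fewer than 100000 counts. The groups used 0 index pairs in common. Values are given in rpm, the reads of a gene scaled to a common total of gene counts in every cell (reads per 1e+06), and are averaged over cells with equal weight. Ptprc, which encodes Cd45, was read in 79 of 81 fresh cells and 66 of 82 day 3 cells. Of 8 neutrophil markers, 6 had no read in fresh cells and 7 had none at day 3. Markers of kidney epithelium, endothelium, stroma and red cells were read in 9, 22, 1 and 2 fresh cells and in 14, 8, 1 and 1 day 3 cells.

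The sorted cells differed first in composition. Cells were put into classes by reads of defining genes at 50 rpm or more: C1q cells by at least 2 of C1qa, C1qb and C1qc (the subunits of complement C1q, neighbours on chromosome 4, with C1qa at chr4:136895917-136898803 in GRCm38), Cd3 cells by at least 2 of Cd3d, Cd3e and Cd3g, and Cd79 cells by both Cd79 genes. C1q cells were 8 of 81 fresh cells (9.88%, interval 4.36 to 18.5) and 56 of 82 day 3 cells (68.3%, 57.1 to 78.1). Cd3 cells were 43 of 81 (53.1%, 41.7 to 64.3) against 7 of 82 (8.54%, 3.50 to 16.8). Cd79 cells were 17 of 81 (20.99%, 12.7 to 31.5) against 4 of 82 (4.88%, 1.34 to 12.02). The day 3 cells were thus mostly C1q cells and the fresh cells mostly lymphocytes, and in none of the 3 classes did the intervals of the groups overlap. No cell met the rules of more than 1 class, so 0 of 82 day 3 cells were mixed, which allows a share of up to 3.66%.

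Of the remaining cells, those with at least 3 markers of 1 further type were named after it. Cells like monocytes numbered 3 fresh and 4 at day 3. Cells like group 2 innate lymphoid cells, a tissue-resident source of type 2 cytokines, numbered 4 and 6. Their master regulator Gata3, itself on the marker list, was read in 4 of 4 and 6 of 6 of these, and the neuromedin receptor gene Nmur1, also on it, in 4 of 4 and 4 of 6. Cells like dendritic cells numbered 2 and 0, and cells like NK cells 1 and 0. Neutrophil-like cells numbered 0 in both groups, which allows shares of up to 3.70% and 3.66%. Unassigned cells numbered 3 and 5.

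**Figure D1:**
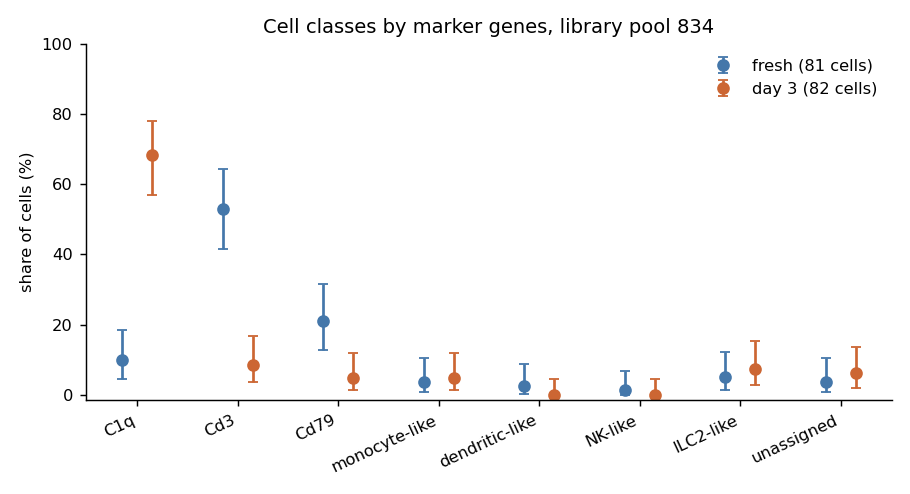
Share of cells (%, y axis) in each class (x axis) for pool IM834, fresh in blue and day 3 in orange, with points for shares and lines for exact 95% intervals of counting error. C1q cells make up 9.88% of fresh and 68.3% of day 3 cells of pool IM834, and Cd3 cells 53.1% and 8.54%.

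Other groups of cells are set beside these for size. In the fresh cells of the other pool, IM793, C1q cells were 8 of 75 (10.7%), Cd3 cells 10 of 75 (13.3%), Cd79 cells 0 of 75, monocyte-like cells 30 of 75 and neutrophil-like cells 15 of 75. Low shares of Cd3 and Cd79 cells were thus also seen in a fresh sample, and a high share of C1q cells was not. Within pool IM834, C1q cells were 22 of 75 (29.3%) at day 1 and 11 of 19 (57.9%) at day 4. Cd3 cells were 6 of 75 at day 1 and 0 of 19 at day 4.

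Day 3 cells held fewer genes, with a wider spread. The number of genes with a read was 1843 per cell in fresh cells (median, with quartiles of 1680 and 2088 and a range from 1011 to 2839). It was 1672.5 at day 3 (quartiles 1168.5 and 2043.5, range 418 to 3402). After thinning each cell to 100000 counts, which left out 1 cell per group, the medians were 1566 and 1451. The lower quartiles differed more than the upper ones. Under 1000 genes were held by 0 of 81 fresh cells but 14 of 82 day 3 cells (17.1%, 9.66 to 26.98). A count of 0 allows a fresh share of up to 3.70%.

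Of these 14 cells, 10 were C1q cells and 4 were unassigned. Among C1q cells the median was 2221 genes in the 8 fresh cells (range 1576 to 2609) and 1672.5 in the 56 day 3 cells (range 699 to 3402). Among Cd3 cells it was 1747 and 1798, and among Cd79 cells 1836 and 1454. In the fresh C1q cells of pool IM793 it was 3595.5, so 2 fresh samples differed more in this class than fresh and day 3 did. These medians by class are not matched in depth. Over all fresh cells the median total was 712369 counts in pool IM793 and 548583 in pool IM834.

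**Figure D2:**
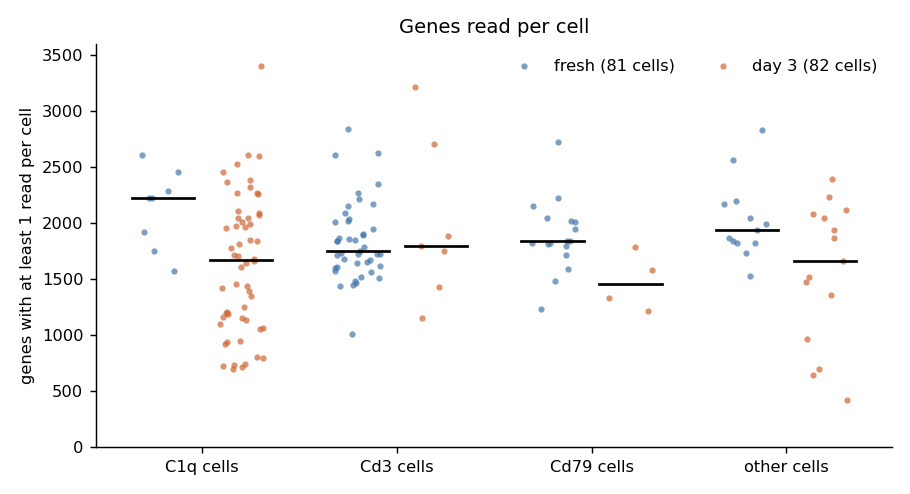
Genes with at least 1 read per cell (y axis), each point 1 cell, by class (x axis) and group of pool IM834, fresh in blue and day 3 in orange, with black lines for medians. No fresh cell lies under 1000 genes, whereas 14 day 3 cells do, 10 of them C1q cells.

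The day 3 C1q cells with few genes held reads of some abundant macrophage genes and fewer of others. In the 10 C1q cells under 1000 genes, Apoe, a lipid carrier, was read in 9 of 10 and Cd74, the invariant chain of MHC class II, in 10 of 10. C1qa and C1qb, which the class rule uses, were read in 10 of 10 and C1qc in 7 of 10. Csf1r, the receptor for macrophage colony stimulating factor, was read in 5 of 10 and Cx3cr1 in 7 of 10, against 45 and 41 of the 46 C1q cells with more genes. Ptprc was read in 1 of 10 and the nuclear RNA Malat1 in 5 of 10. In the 46 cells, Ptprc was read in 41 and Malat1 in 43. The median share of mitochondrial genes was 4.71% in the cells with few genes and 2.98% in the others, and that of 18S rRNA was 12.4% and 7.51%. Median totals were 462820 and 546634 counts. The part of depth, and of whatever moves the mitochondrial and 18S shares, in the missing genes was not tested. Over all cells, the mitochondrial median was 3.88% in fresh and 3.02% in day 3 cells and that of 18S rRNA 9.84% and 8.92%.

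Expression was then compared over all cells. Genes without a read in 10% of the fresh cells or 10% of the day 3 cells were dropped, which left 6403 genes, and the log2 ratio was taken of the mean rpm of day 3 over that of fresh cells, each plus 1 rpm. At least 2-fold higher at day 3 were 1054 genes (16.5%) and at least 2-fold lower 1363 genes (21.3%), in all 37.7%. These counts describe 1 sample against another. The 2 fresh samples differed from each other as much, with 21.3% of 8297 genes at least 2-fold higher in pool IM793 than in pool IM834 and 22.2% lower. They also differ in sex-linked reads, given at the end, which the fresh and day 3 groups of pool IM834 do not. Since the classes differ in size, the comparison was repeated with fresh cells weighted so that C1q, Cd3, Cd79 and other cells had their day 3 shares, an alternative chosen after the data were seen. It places most of its weight on 8 fresh C1q cells. Of the genes higher at day 3, 518 were also at least 2-fold higher under this weighting, and of the lower genes, 635 were also lower. Among genes past 2-fold, 43.6% were higher with equal weights and 56.9% with the weighting. The median log2 ratio of all genes was -0.16 with equal weights and 0.09 with the weighting. Under the weighting 21.8% of the 6403 genes were at least 2-fold higher and 16.5% lower.

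The 12 genes whose share of cells grew most between fresh and day 3 were led by genes known from macrophages. Among them, C1qa, C1qb and C1qc define the C1q class and restate its size. Apoe (chr7:19696109-19699188) was read in 17 of 81 fresh and 62 of 82 day 3 cells, with a median of 0 and 3497 rpm and a highest value of 21049.7 and 29049.9 rpm. Its mean was 1236 against 5662 rpm, a log2 ratio of 2.20. Cx3cr1, the fractalkine receptor, was read in 15 and 54 cells, at a mean of 249.4 and 2161 rpm and a log2 ratio of 3.11. In both genes the highest fresh cells lay within the day 3 range, and the groups differed in how many cells held a read.

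The other genes were also read in more day 3 cells. Tyrobp and Fcer1g, signalling adaptors of myeloid receptors, were read in 19 and 62 and in 17 and 58 cells. The creatine synthesis enzyme gene Gatm was read in 13 and 50 cells, Tmem176b, a membrane protein of antigen-presenting cells, in 18 and 55, and the endocytic adaptor Dab2 in 12 and 47. Gas7 was read in 7 and 41 cells, and Lilra5, an activating receptor of the immunoglobulin superfamily, in 8 and 42. With the fresh classes weighted to the day 3 shares, 0 of these 12 genes were at least 2-fold higher, and the log2 ratios lay between -0.70 and 0.75. Within C1q cells, 0 of the 12 passed 2-fold in either direction, but without the highest cell of each group for each gene Cx3cr1 (1.53), Lilra5 (1.20) and Tmem176b (1.09) did. Apoe was at a mean of 10866 rpm in fresh and 8149 rpm in day 3 C1q cells.

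The 12 genes whose share of cells shrank most were led by genes known from lymphocytes. Ccr7, the chemokine receptor that guides naive T cells to lymph nodes (chr11:99144196-99155077), was read in 52 of 81 fresh cells (median 678 rpm, highest 6758) and in 7 of 82 day 3 cells (median 0, highest 4966). Its log2 ratio was -3.35. Cd3g defines the Cd3 class, and Trbc2, a constant segment of the T cell receptor beta chain, was read in 50 and 10 cells. The lymphocyte transcription factor Ets1 was read in 64 and 22 cells, the CD45-associated protein gene Ptprcap in 61 and 14, the septin gene Sept1 in 63 and 14, and Ablim1, an actin-binding protein, in 57 and 10. Cytip, which binds the integrin regulator cytohesin, was read in 65 and 24 cells, the guanine nucleotide exchange factor Arhgef1 in 68 and 29, and Cyfip2, of the WAVE actin complex, in 55 and 16.

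Among these lower genes, 4 were also at least 2-fold lower with the weighting and 4 within C1q cells (Stk17b, Cytip, Ets1 and Pdcd4). Without the highest cell of each group for each gene, Stk17b and Cytip stayed past 2-fold in C1q cells at -2.08 and -1.35, Pdcd4 was at -0.86 and Ets1 turned to 2.89. Stk17b, a kinase of the death-associated family (chr1:53755506-53785224), was read in 74 of 81 fresh cells and 35 of 82 day 3 cells. Its mean was 1832 and 449 rpm, and with the weighting the log2 ratio was -1.67. Within C1q cells it was read in 8 of 8 fresh cells (median 1281 rpm) and 18 of 56 day 3 cells (median 0). Pdcd4, an inhibitor of translation, was read in 65 and 20 cells over all classes, and its weighted log2 ratio was -2.14.

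**Figure D3:**
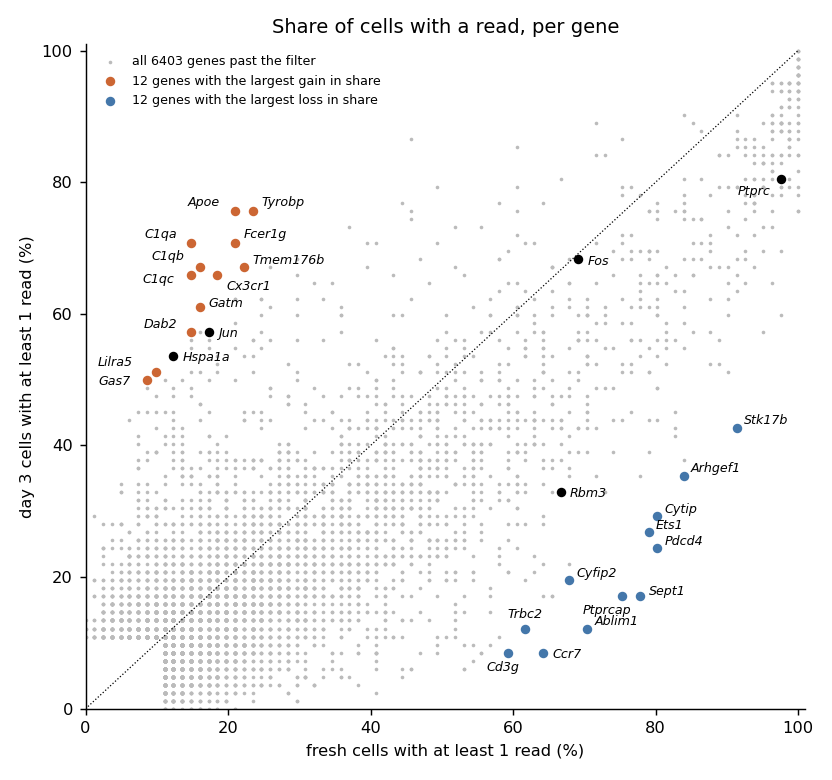
Percent of fresh cells (x axis) and of day 3 cells (y axis) of pool IM834 with at least 1 read, each point 1 of 6403 genes, with the 12 genes of the largest gain and the 12 of the largest loss in colour and 5 further genes in black. Apoe lies at 20.99% and 75.6%, Stk17b at 91.4% and 42.7%, and Fos near the diagonal at 69.1% and 68.3%.

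Gene lists followed the classes. Of 10 genes of complement and scavenging, 10 were at least 2-fold higher at day 3 (median log2 ratio 2.55), against 16.5% of all genes. So were 14 of 18 lysosome and cathepsin genes (1.61) and 6 of 6 genes of Fc receptors and signalling adaptors (1.78), which include Tyrobp and Fcer1g named above. With the fresh classes weighted, 1, 1 and 0 of them were higher, against 21.8% of all genes, and the medians were 0.36, 0.00 and -0.09. Of 12 T cell markers 11 were at least 2-fold lower (median -2.62), and of 11 B cell markers 9 (-2.21), against 21.3% of all genes. With the weighting 4 and 1 were lower, against 16.5% of all genes. The T cell list holds the Cd3 genes that define the class and so in part restates its size. Many members passed the filter only through the group where they were high, which fixes their direction. Of those that passed in both groups, 4 of 4 genes of complement and scavenging and 13 of 17 lysosome and cathepsin genes were higher. So were 4 of 4 genes of Fc receptors and adaptors, while 4 of 4 T cell and 0 of 2 B cell markers were lower. The mitochondrially encoded genes had 0 of 13 members past 2-fold and a median of 0.06, and of 79 cytosolic ribosomal protein genes 0 were higher and 3 lower (-0.47). Of 11 genes of glycolysis 2 were lower and 0 higher, but with the weighting 0 were lower and 2 higher. Of 7 genes of the unfolded protein response 1 was lower and 0 higher.

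**Figure D4:**
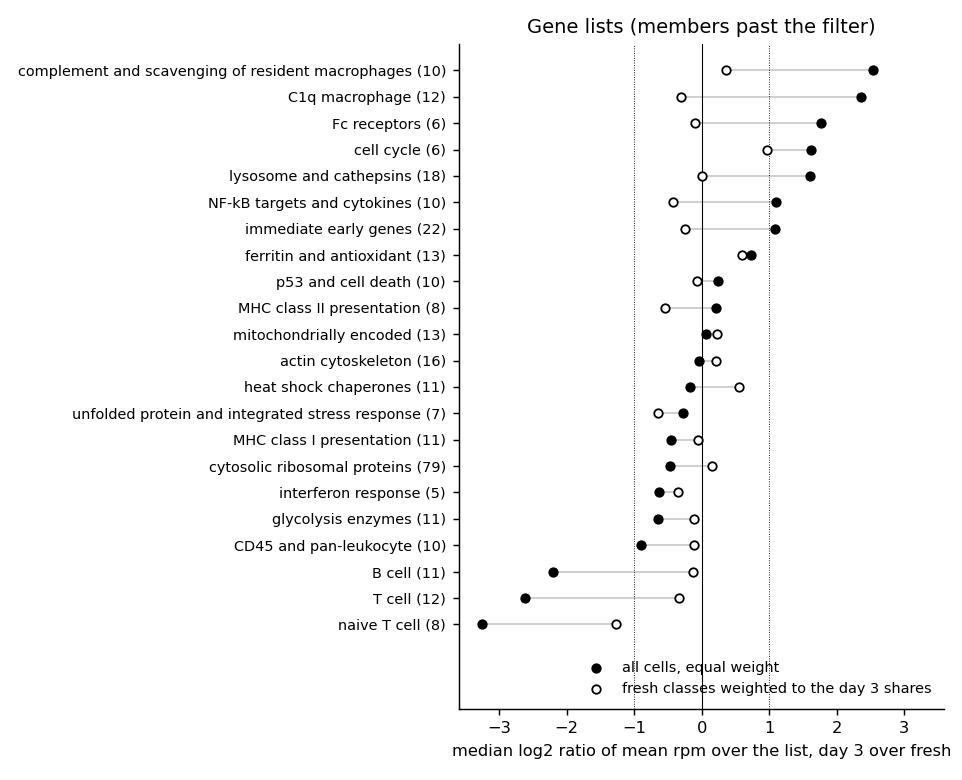
Median log2 ratio of mean rpm, day 3 over fresh (x axis), over the members of each gene list that passed the filter (number in brackets), with filled points for equal weights and open points for fresh classes weighted to the day 3 shares. The T cell list moves from -2.62 to -0.34 and that of complement and scavenging from 2.55 to 0.36, while heat shock chaperones move from -0.16 to 0.55.

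The pair of inducible Hsp70 genes stayed higher at day 3 when the classes were weighted. Hspa1a (chr17:34969190-34972156, minus strand) was read in 10 of 81 fresh cells, with a median of 0 and a highest value of 672 rpm. At day 3 it was read in 44 of 82 cells (53.7%), with a median of 39.2 and a highest value of 8670 rpm. The means were 23.4 and 1045 rpm, a log2 ratio of 5.42, and 25 day 3 cells but 0 fresh cells held 1000 rpm or more. With the fresh classes weighted to the day 3 shares, the fresh mean was 130.01 rpm and the log2 ratio 3.00. Every fresh cell thus lay within the lower part of the day 3 range.

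Hspa1b (chr17:34956436-34959238, minus strand) was read in 9 and 41 cells, at means of 9.21 and 429 rpm, with a log2 ratio of 5.40 and, with the weighting, 3.43. These genes encode nearly the same protein, and reads may have been split between them or lost, so their separate levels are uncertain. Both were read in 8 fresh and 41 day 3 cells, Hspa1a alone in 2 and 3, and Hspa1b alone in 1 and 0. The promoters of the pair are shown because the genes were often read in the same cells, in 8 of the 11 fresh and 41 of the 44 day 3 cells with a read of either. They are the 250 bases before the annotated start (RefSeq, GRCm38.p6, chromosome 17, minus strand, 34972157 to 34972406 for Hspa1a and 34959239 to 34959488 for Hspa1b). Capitals mark GAANNTTC, the core of the heat shock element to which heat shock factor 1 is known to bind. This motif is its own reverse complement and was searched by these letters.
Hspa1a: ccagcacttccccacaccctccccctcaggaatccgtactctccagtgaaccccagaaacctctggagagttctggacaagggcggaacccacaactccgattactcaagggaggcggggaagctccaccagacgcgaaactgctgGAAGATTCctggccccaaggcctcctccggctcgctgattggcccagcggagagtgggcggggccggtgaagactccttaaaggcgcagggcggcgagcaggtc
Hspa1b: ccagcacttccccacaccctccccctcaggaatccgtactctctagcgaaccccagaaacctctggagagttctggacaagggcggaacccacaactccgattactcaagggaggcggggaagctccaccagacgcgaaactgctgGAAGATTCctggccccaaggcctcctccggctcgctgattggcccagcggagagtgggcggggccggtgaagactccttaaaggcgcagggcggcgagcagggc
The windows differ at 3 bases, and the motif stands once in each, at the same distance from the start. It was present in the windows of 2088 of 27025 genes (7.73%) and in 6 of the 9 heat shock list genes that have a window. Dnajb1, Hsph1 and Bag3 did not have it. In C1q cells, genes with it were found both at least 2-fold higher (Hspa1a, Hspa1b and Hspe1) and lower (Dnaja1 and Hspd1), and Hsph1 was higher without it. The data do not bear on binding at these sites.

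The other chaperones differed less over all cells. Of 11 heat shock genes that passed the filter, 3 were at least 2-fold higher (Hspa1a, Hspa1b and the Hsp70 co-chaperone gene Bag3) and 0 lower, against 16.5% and 21.3% of all genes, and the list median was -0.16. Bag3 passed the filter only through day 3, and of the 10 genes that passed in both groups 2 were higher. With the weighting 4 were higher and 1 lower (median 0.55), against 21.8% and 16.5%. In C1q cells 5 of 11 were higher and 2 lower (median 0.69), against 30.3% and 27.4%, and of the 10 that passed the filter in both groups 4 were higher and 2 lower. Hsp90aa1 was at a log2 ratio of 1.60 in these cells. Bag3 was read in 4 fresh and 11 day 3 cells, with a weighted log2 ratio of 0.68. The constitutive Hsp70 gene Hspa8 was read in 78 and 74 cells, at 1523 and 2046 rpm. Hsp90aa1, an inducible Hsp90, was read in 68 and 66 cells, at 636 and 1063 rpm, and its weighted log2 ratio was 1.33. The Hsp40 gene Dnajb1 was read in 36 and 28 cells, and Hsph1, of the Hsp110 family, in 14 and 12, with a weighted log2 ratio of 1.21.

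By class, Hspa1a was read in 4 of 8 fresh and 35 of 56 day 3 C1q cells, with medians of 62.4 and 447 rpm and highest values of 672 and 8670 rpm. It was read in 4 of 43 and 3 of 7 Cd3 cells, in 2 of 17 and 1 of 4 Cd79 cells and in 0 of 13 and 5 of 15 other cells. The share of C1q cells with a read had overlapping intervals in the groups (15.7 to 84.3% and 48.5 to 75.1%), while the mean was 189.2 against 1379 rpm. Among day 3 C1q cells, the gene was read in 2 of 10 cells under 1000 genes and in 33 of 46 cells with more. Of these 2, 1 had only 3590 counts in total and held 1950 rpm, and the other held 11.1 rpm. In other groups Hspa1a was read in 46 of 75 day 1 cells (mean 686 rpm) and 15 of 75 fresh cells of pool IM793 (mean 58.9 rpm). Within C1q cells the mean was 189.4 rpm in the fresh cells of pool IM793 and 1485 rpm at day 1. Both fresh means, each of 8 cells, lay under those of day 1 and day 3 in this class. Each group is 1 sample, and the day 1 cells also differ from the fresh and day 3 cells of this pool in sex-linked reads. The part of storage in these levels was not tested.

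Immediate early genes were more often higher than lower at day 3 over all cells, and not so with the fresh classes weighted. Over all cells, 11 of 22 were at least 2-fold higher at day 3 and 1 lower, against 16.5% and 21.3% of all genes (median log2 ratio 1.09, against -0.16 for all genes), and of the 20 that passed the filter in both groups 9 were higher and 1 lower. With the fresh classes weighted 4 were higher and 5 lower, against 21.8% and 16.5%, and the median was -0.25. Jun, an AP-1 subunit (chr4:95049034-95052222), was read in 14 of 81 fresh cells (median 0, highest 4037 rpm) and 47 of 82 day 3 cells (median 140.9, highest 14302 rpm). Its log2 ratio was 3.57 and 1.17 with the weighting. Its partner Fos (chr12:85473890-85477273) was read in 56 cells of each group, at means of 1522 and 3901 rpm and medians of 784 and 671 rpm, and its weighted log2 ratio was -0.01. The mean of Fos was thus higher at day 3 and its median lower, and its highest value was 32514 rpm at day 3. Gadd45b, a stress sensor, was read in 12 and 29 cells, with log2 ratios of 2.68 and, weighted, 2.77.

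The list had medians of opposite sign in the largest classes, -0.70 in C1q cells and 1.96 in Cd3 cells, a difference that was not tested. Of its 24 genes, fresh C1q cells had a read of 15 (median, range 4 to 19) and day 3 C1q cells of 9 (0 to 20). The day 3 median was 2 in the C1q cells under 1000 genes and 10.5 in the others. Cd3 cells had reads of 8 (3 to 13) and 14 (6 to 21). In C1q cells 3 of 23 genes were at least 2-fold higher, 9 lower and 11 within 2-fold, against 30.3% and 27.4% of 8096 genes, and without the cells under 1000 genes the counts were again 3 and 9 (median -0.56). Of the 21 that passed the filter in both groups 2 were higher and 8 lower. In Cd3 cells 15 of 22 were higher and 1 lower, against 27.4% and 33.4% of 7820 genes. Of these 22, 8 passed the filter only through the 7 day 3 cells, and of the 14 that passed in both groups 9 were higher and 0 lower. Markers of NK cells moved with the list in Cd3 cells, with 2 of 7 day 3 cells and 0 of 43 fresh cells holding at least 3 of them, and their part in it was not tested. Other lists also had higher members in Cd3 cells. Of 10 B cell markers 7 were higher and 0 lower, but 9 passed the filter only through day 3. Of 8 MHC class II genes 3 were higher and 1 lower. Dusp1, a phosphatase that switches off MAP kinases, was read in 8 of 8 fresh C1q cells (median 7232 rpm) and 34 of 56 day 3 C1q cells (median 69.4 rpm). In Cd3 cells Jun was read in 4 of 43 fresh and 5 of 7 day 3 cells (shares of 9.30%, interval 2.59 to 22.1, and 71.4%, interval 29.04 to 96.3). In fresh C1q cells of pool IM793 the median number of these genes was 17.5 and in its fresh Cd3 cells 12. The day 3 value of Cd3 cells thus lay nearer to that of the other fresh sample than the fresh cells of pool IM834 did.

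**Figure D5:**
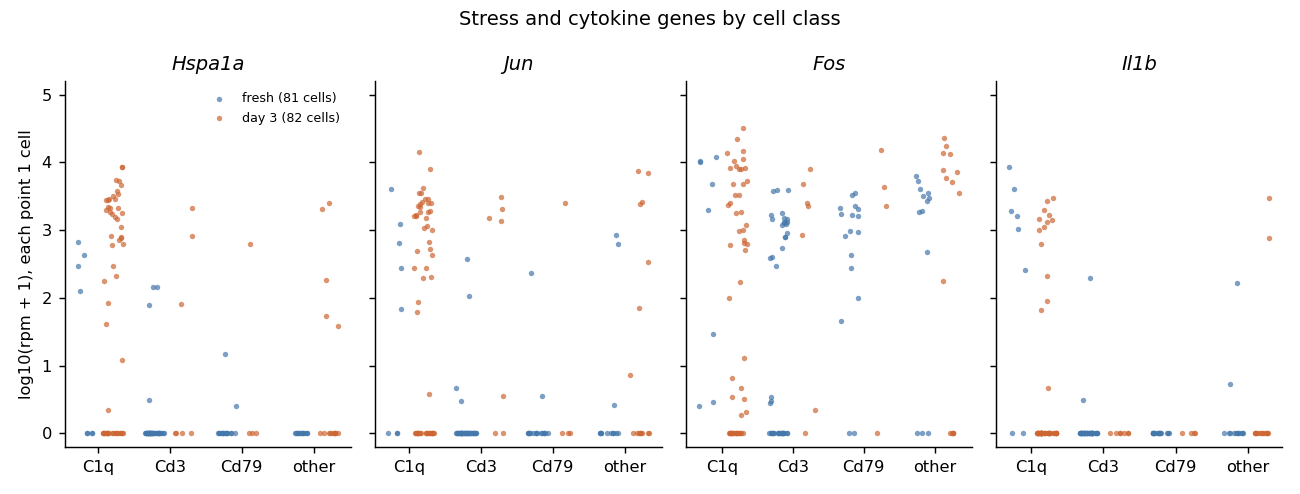
Level of Hspa1a, Jun, Fos and Il1b (y axis, log10 of rpm plus 1) in single cells of pool IM834, each point 1 cell, by class (x axis), fresh in blue and day 3 in orange. For Hspa1a 25 day 3 cells and 0 fresh cells lie at 1000 rpm or more, while for Il1b 6 of 8 fresh and 14 of 56 day 3 C1q cells have a read.

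NF-kB targets and cytokines, the genes of inflammatory signalling, also had medians of opposite sign in C1q cells (-0.81) and Cd3 cells (2.26), which was not tested. Over all cells, 6 of 10 were at least 2-fold higher at day 3 and 0 lower (median 1.10), against 16.5% and 21.3% of all genes, but 4 passed the filter only through day 3, and of the 6 that passed in both groups 3 were higher. With the fresh classes weighted 0 were higher and 2 lower (median -0.42), against 21.8% and 16.5%. Ccl4, a macrophage chemokine, was read in 6 of 81 fresh and 34 of 82 day 3 cells, with log2 ratios of 2.38 and, weighted, -0.38. In C1q cells 0 of 12 were higher and 5 lower, against 30.3% and 27.4% of all genes, and without the cells under 1000 genes 1 was higher and 4 lower. Of the 10 that passed the filter in both groups 3 were lower, a share near that of all genes. In Cd3 cells 7 of the 15 members passed the filter, 4 of them only through day 3. Of the 3 that passed in both groups 2 were higher and 0 lower, against 27.4% and 33.4% of all genes. The Cd3 median was 1.24 with a pseudocount of 10 rpm. Il1b, the interleukin 1 beta gene (chr2:129364570-129371139), was read in 6 of 8 fresh C1q cells (median 1329 rpm, highest 8636) and in 14 of 56 day 3 C1q cells (median 0, highest 2939). The neutrophil chemokine gene Cxcl2 was read in 5 of 8 and 21 of 56. In the fresh C1q cells of pool IM793 both were read in 6 of 8. In day 3 C1q cells with at least 1000 genes Il1b was read in 11 of 46 (23.9%, 12.6 to 38.8), and the interval of the 8 fresh cells was 34.9 to 96.8%, which overlaps.

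The cold-inducible RNA binding proteins, which are made in cooled cells, were not higher after cold storage. Rbm3 was read in 54 of 81 fresh cells (median 265.1, highest 1286 rpm) and 27 of 82 day 3 cells (median 0, highest 1374 rpm), a log2 ratio of -1.04. Cirbp was read in 17 and 6 cells. With the weighting the log2 ratios were -0.40 and 0.68, so neither passed 2-fold. Rbm3 was read in 4 of 8 fresh and 19 of 56 day 3 C1q cells, and in 28 of 43 and 5 of 7 Cd3 cells. It was read in 14 of 17 fresh Cd79 cells and in 0 of 4 at day 3 (exact limit 60.2%).

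Within C1q cells the comparison rests on 8 fresh cells, and 57.7% of 8096 genes passed 2-fold in either direction. In the same class, 64.9% of 11205 genes passed it between the 2 fresh samples. Macrophage genes differed to unequal extents. C1qa had medians of 3387 and 2404 rpm, Csf1r 3146 and 2921 rpm, and Cd74 8330 and 7681 rpm. The mean of C1qa was 1.66-fold higher in fresh cells and that of Cx3cr1 1.77-fold higher at day 3 (1762 and 3125 rpm). The macrophage marker Adgre1, which encodes F4/80, was read in 7 of 8 and 36 of 56 cells, with medians of 1800 and 346 rpm, means of 1872 and 936 rpm and a log2 ratio of -0.998 that was just short of 2-fold. The mannose receptor gene Mrc1 was read in 8 of 8 and 37 of 56, with a log2 ratio of -0.95. Of 12 macrophage markers 1 was at least 2-fold higher and 0 lower. Without the day 3 cells under 1000 genes 1 was higher and 1 lower, since Adgre1 then had a mean of 843 rpm.

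Genes with the largest gain in the share of C1q cells with a read were mostly at or near 0 in the 8 fresh cells. Hmgb2, a chromatin protein, was read in 2 of 8 fresh cells (highest 47 rpm) and 37 of 56 day 3 cells (median 74.1 rpm). Ddost, of the oligosaccharyltransferase, was read in 1 of 8 and 31 of 56, and the sheddase gene Adam10 in 1 of 8 and 28 of 56. The chaperonin gene Cct7, Rassf5, Neurl3 and the ribosome biogenesis gene Eif6 were read in 0 of 8, which allows a share of up to 37.5%, and in 18, 17, 17 and 17 of 56. In the 8 fresh C1q cells of pool IM793 these 7 genes were read in 3 to 7 cells. The 4 genes without a read in the fresh C1q cells of pool IM834 were thus read in those of the other pool.

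Genes with the largest loss included Stk17b and Dnaja1, an Hsp40 co-chaperone, read in 8 of 8 and 19 of 56 cells (medians of 456 and 0 rpm). Sik1, a salt-inducible kinase, was read in 8 of 8 and 20 of 56, Cabin1, a calcineurin inhibitor, in 7 of 8 and 7 of 56, and the phosphoinositide kinase gene Pik3c2a in 6 of 8 and 4 of 56. Thrap3, a splicing protein, was read in 7 of 8 and 15 of 56, the isocitrate dehydrogenase gene Idh3b in 6 of 8 and 7 of 56, and Nbeal1 in 6 of 8 and 8 of 56. In fresh C1q cells of pool IM793 Sik1 was read in 1 of 8 and Cabin1 in 4 of 8, whereas Dnaja1 and Stk17b were read in 6 of 8. Of 9 cell cycle genes that passed the filter in C1q cells, 4 passed only through day 3. Of the other 5, 2 were at least 2-fold higher and 0 lower, against 30.3% and 27.4% of all genes. Pcna, the DNA polymerase clamp, was read in 3 of 8 and 31 of 56 cells, Mcm5, of the replicative helicase, in 0 of 8 and 10 of 56, and Top2a, Birc5 and Ccna2 each in 0 of 8 and 6 of 56. In the fresh C1q cells of pool IM793 Pcna was read in 8 of 8 and the other 4 in 2 or 3 of 8.

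The Cd3 cells held different shares of naive and NK markers, with few cells at day 3. Of the 43 fresh cells 41 (95.3%, 84.2 to 99.4) held at least 3 of 8 markers of naive T cells, against 4 of the 7 day 3 cells (57.1%, 18.4 to 90.1). At least 3 NK cell markers were held by 0 of 43 (exact limit 8.22%) and by 2 of 7 (28.6%, 3.67 to 70.96). The intervals of the groups overlap for both traits. In the fresh Cd3 cells of pool IM793, 5 of 10 held the naive markers and 4 of 10 the NK markers. Of the 7 day 3 cells, 1 held all of the naive transcripts Ccr7 (4728 rpm), Il7r (1084 rpm) and Tcf7 (1260 rpm), and the other 6 had no read of Ccr7 or Il7r. The activating NK receptor gene Klrk1 was read at 3296 and 4213 rpm and Ncr1 at 1865 and 340 rpm in a pair of day 3 cells, and at 0 in the other 5. The cytotoxic granule gene Nkg7 was read in 4 of the 7, at 1005 to 2691 rpm. The cell with Ncr1 at 1865 rpm had no read of Cd3e or of Trac, the T cell receptor alpha constant segment, so its place among T cells is uncertain. Cd4 was read in 19 of 43 and 3 of 7 cells and Cd8a in 6 of 43 and 0 of 7, which allows a share of up to 42.9%.

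With 7 cells at day 3, 60.8% of 7820 genes passed 2-fold in either direction in Cd3 cells, against 53% of 9896 genes between the fresh samples. Il2rb, the interleukin 2 receptor beta chain (chr15:78479256-78495271), was read in 5 of 43 fresh cells (median 0, highest 948 rpm) and in 6 of 7 day 3 cells, at 0, 17.7, 260, 351, 936, 1179 and 1229 rpm. The tetraspanin gene Cd82 was read in 7 of 43 and 6 of 7 cells, the hexokinase gene Hk1 in 8 of 43 and 6 of 7, and Gps2, of a corepressor complex, in 14 of 43 and 7 of 7. Hopx, a homeodomain-only protein, and Itgb1, the integrin beta 1 chain, were each read in 4 of 43 and 5 of 7, and Cmtm7 in 5 of 43 and 5 of 7. Il2rb and Cd82 were read in 7 and 6 of the 10 fresh Cd3 cells of pool IM793, and Hk1 in 2.

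Lower in share were Ccr7, read in 35 of 43 and 1 of 7 Cd3 cells, the chemokine receptor gene Cxcr4 (24 of 43 and 0 of 7) and Sik1 (22 of 43 and 0 of 7). The interferon-inducible GTPase gene Igtp, the histone methyltransferase gene Ash1l, Clta, a clathrin light chain, and Pcf11, of the mRNA cleavage machinery, were each read in 21 of 43 and 0 of 7. The predicted gene Gm12183 was read in 32 of 43 cells, at most at 26.3 rpm, and in 1 of 7. The Ccr7 reads of the day 3 Cd3 cells all came from 1 cell. Of 10 heat shock genes 6 were at least 2-fold higher in Cd3 cells and 2 lower, against 27.4% and 33.4% of all genes, and of the 8 that passed the filter in both groups 4 were higher and 2 lower, with Hspa8 read in 40 of 43 cells (median 1606 rpm) and 7 of 7 (median 4511 rpm).

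Cd79 cells were too few at day 3 for a comparison across genes. In the 17 fresh and 4 day 3 cells, Ms4a1, which encodes CD20, was read in 17 and 2. Ptprc was read in 16 and 4. Of the 24 immediate early genes, the cells held reads of 10 and 12.5 (medians).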

How the data were processed

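Single-cell read counts per gene were used as the authors deposited them: whole-number counts per gene and cell, made from Smart-seq2 libraries (no molecular identifiers) by trimming to a common read length, alignment with STAR to GRCm38 and counting with HTSeq without regard to strand, after cells with too few reads had been left out. The sources used here give no versions. Because strand was ignored, reads of overlapping or antisense genes cannot be told apart. ERCC spike-ins (96 features) and a vector sequence were dropped, which left 46603 genes, and each count was divided by the cell's total (rpm). Groups came from the time and pool name in the labels. Depths ran from 3590 to 1196748 counts per cell.

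No test was run, since each group is 1 sample. Log2 ratios of mean rpm used a pseudocount of 1 rpm and a filter of a read in 10% of cells of either group, and 2-fold was the limit for a count. Named genes were those past 2-fold with the largest change in the share of cells with a read (12 per direction over all cells, 8 within C1q and within Cd3 cells), plus members of the lists. Variable, diversity and joining segments of the receptors were left out of these, and constant segments were not. Single values of some of these genes are not reported here. Members and lists were chosen with earlier results of these data known. No doublet caller was run. Alternatives covered TMM and DESeq2 size factors on summed counts (edgeR 4.0.16, DESeq2 1.42.0, R 4.3.3), CPM of sums, a pseudocount of 10 rpm, no filter, thinning to 100000 counts, class limits of 10 and 200 rpm, dropping the highest cell per gene and other fresh references. Alternatives added after the data were seen were cells with at least 1000 genes, the fresh C1q cells of pool IM793 and the class weighting. Scripts were tested on simulated data (Python 3.11.15, numpy 2.4.6, pandas 2.3.3, scipy 1.17.1). Gene positions are those of GENCODE for GRCm38, and promoters those of RefSeq.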

Additional observations from a re-analysis of the deposited data

Results flagged for a closer look

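The immediate early genes and the NF-kB targets had median log2 ratios of opposite sign in the 2 largest classes. The immediate early list was at -0.70 in C1q cells and 1.96 in Cd3 cells, and the NF-kB list at -0.81 and 2.26, against -0.03 and -0.02 for all genes. With 1 sample per group the difference between the classes was not tested, and it rests on 8 fresh C1q cells and 7 day 3 Cd3 cells. In Cd3 cells 8 of 22 and 4 of 7 members passed the filter only through day 3. A row for a vector sequence, left out of all totals, held 0.299% of the counts of day 3 cells, 0.358% of those of fresh cells of pool IM834, 0.325% at day 1, 0.620% at day 4 and 0.000198% of those of fresh cells of pool IM793. The origin of these reads was not tested.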

How the results depend on the processing

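No paired analysis was possible because each group counts as 1 sample and the labels give no replicate numbers that pair the groups. Of the single-gene values recomputed, 541 moved by less than their limit, 95 moved and 15 changed sign. With fresh cells of both pools as reference, Tyrobp was at -0.10 and Fcer1g at -0.025 on the log2 scale over all cells. With the fresh classes weighted, C1qa was at -0.70, Apoe -0.40, Tyrobp -0.12, C1qc -0.37, C1qb -0.039, Fcer1g -0.065, Dab2 -0.66 and Cyfip2 0.31. Against the fresh C1q cells of pool IM793, Ddost was at -0.16, Hmgb2 -0.14, Cct7 -0.83, Cabin1 0.30 and Sik1 2.22 in C1q cells.

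Without a filter on genes, 3321 genes were higher and 3541 lower over all cells, 5247 higher in C1q cells and 5210 lower in Cd3 cells. Without the highest cell of each group for each gene, 4168 were higher and 749 lower in C1q cells and 598 higher and 4201 lower in Cd3 cells. By construction this drops 1 of 8 fresh C1q cells and 1 of 7 day 3 Cd3 cells per gene. Of the genes past 2-fold in C1q cells, 52.5% were higher in the comparison as reported, 70.3% without a filter and 84.8% without the highest cells. In Cd3 cells these shares were 45.05%, 29.1% and 12.5%. TMM factors moved the median of all genes from -0.16 to -0.05 over all cells, from -0.03 to 0.13 in C1q cells and from -0.02 to -0.20 in Cd3 cells.

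Among list medians, TMM factors gave -0.089 for glycolysis over all cells, -0.24 for sex-linked genes and -0.027 for dendritic markers in C1q cells, and CPM of sums gave -0.36 for sex-linked genes. In Cd3 cells, CPM of sums and TMM factors gave -2.51 and -2.66 for hypoxia genes, -0.65 and -0.83 for the unfolded protein response, 1.79 and 1.62 for the cell cycle and 7.48 and 7.39 for NK markers, and CPM gave 2.02 for B cell markers. With a pseudocount of 10 rpm the Cd3 medians were 1.24 for NF-kB targets, -0.93 for hypoxia, 0.11 for MHC class II, 1.71 for the cell cycle, -0.62 for C1q macrophage markers, 0.24 for B cell markers and 4.54 for NK markers. Such medians rest on genes at 0 in many fresh or day 3 cells, so they move with the pseudocount and are no bounds.

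With fresh cells of both pools, fresh shares were 34% Cd3 and 10.9% Cd79 cells, the fresh median was 2003.5 genes, and the mitochondrial and 18S medians were 3.07% and 8.13%. Counting genes from 10 rpm gave medians of 1456 fresh and 1372 day 3 genes, and thinning gave 1566 for fresh cells. The other 272 summary values stayed within their limits. The cause of these moves was not tested. Gene numbers were also given at a common depth, and the part of depth in the other differences was not tested. The comparisons within classes rest on 8 fresh C1q cells and 7 day 3 Cd3 cells.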

Other observations

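Pf4, a chemokine known from platelets and also made by macrophages, was read in 8 of 81 fresh and 37 of 82 day 3 cells, and within C1q cells in 7 of 8 and 36 of 56, at means of 373 and 380.0 rpm.

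The noncoding RNA Xist, made from the inactive X chromosome of female cells, was read in 2 of 81 fresh and 0 of 82 day 3 cells of pool IM834, and in 60 of 75 day 1 cells of the same pool and 48 of 75 fresh cells of pool IM793. The Y-linked gene Eif2s3y was read in 21 of 81, 18 of 82, 1 of 75 and 0 of 75 cells of these groups. The fresh and day 3 groups of pool IM834 thus match each other in these genes. Neither the day 1 group nor the fresh cells of pool IM793 match them.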
